A study of Mus musculus with 19 samples.

Results

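The genes described here are the heat shock proteins, the DNAJ (J-domain) proteins and the chaperonin subunits of the mouse, together with the transcription factor Hsf1. They were chosen by symbol: names beginning with Hsp and a family letter (Hspa, Hspb, Hspd, Hspe, Hsph) or with Hsp90, Dnaja, Dnajb and Dnajc with a number, the Cct subunits, and Tcp1 and Hsf1. By that rule 83 of the 51912 rows of the NSCLC table and 82 of the 24421 rows of the resistance table were members, with 82 distinct symbols in each. The additional row of the NSCLC table carries the symbol Hspa14 a second time, under an identifier that the GENCODE M21 annotation names Gm45902.

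Chaperones bind unfolded protein and help it reach its native state. HSP70 proteins do so in cycles of ATP hydrolysis that J-domain proteins start and nucleotide exchange factors such as HSP110 end, HSP90 acts late on kinases and receptors, and the chaperonins enclose a protein in a ring: CCT in the cytosol for actin and tubulin, HSP60 with HSP10 in mitochondria. Small heat shock proteins hold unfolding protein without ATP. HSF1 turns on the inducible members under heat and other protein stress, and the unfolded protein response turns on those of the endoplasmic reticulum (ER).

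RNA was measured by bulk sequencing of mouse organoids, which are 3-dimensional cell cultures, in 2 separate comparisons: NSCLC (non-small cell lung cancer) organoids (n = 4) against normal lung organoids (n = 3), and immunotherapy-resistant NSCLC organoids (n = 9) against immunotherapy-sensitive NSCLC organoids (n = 3). The comparisons share no library, and the title of the series is about cancer cell collagens and resistance acquired to treatment. The labels give for each library a tissue (normal lung or NSCLC) and a group. The sources used here do not give genotype, strain, age, tumour driver, the immunotherapy or the time of sampling. They also do not say whether the libraries of a group came from separate animals, lines or cultures. By a chi-square of counts averaged over genes, resistant libraries 2 and 3 (18.8) and 8 and 9 (26.3) were the closest. Other resistant pairs had values of 62.3 to 211. The 9 resistant libraries may thus not be separate units, which was not tested. The p-values therefore cover only library-to-library spread, which may be technical.

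Levels are given as CPM, read counts scaled to the TMM-normalised library size. They come from total counts of 122967042 to 154479953 per NSCLC library and 20138197 to 21060762 per normal library, and of 11988677 to 24462955 per resistant library and 15292427 to 18716749 per sensitive library. Depth thus differed between NSCLC and normal with no overlap. The NSCLC libraries held 7 to 26 Xist counts and 2 to 313 Y-linked counts. The normal libraries held 13706 to 15163 Xist counts and 0 Y-linked counts. Resistant libraries 6, 8 and 9 held 433 to 805 Xist counts and no Y-linked counts, unlike the other 6. These counts thus differed with the NSCLC label and varied within the resistant group. A difference in sex cannot be told apart from the NSCLC label, and whether the counts reflect the sex of the cells was not tested. Cell type markers differed as well. The summed level of 7 epithelial genes, with Epcam, Cdh1 and Krt8 among them, was 9279 to 14250 CPM in NSCLC and 1800 to 2080 CPM in normal organoids, and it was 294.7 to 2349 CPM in resistant against 5355 to 7044 CPM in sensitive organoids. Of 7 alveolar type 2 markers 6 were lower in NSCLC, with sums of 7408 to 13940 CPM in NSCLC and 51200 to 59990 CPM in normal organoids, as were 4 of 5 alveolar type 1 markers (1210 to 2230 CPM in NSCLC and 5152 to 7112 CPM in normal organoids). Of 6 macrophage markers 5 were lower and 1 higher in NSCLC (23.7 to 46.6 CPM in NSCLC and 1577 to 2878 CPM in normal organoids), and 5 were lower in resistant organoids (202.6 to 1101 CPM in resistant and 1564 to 3605 CPM in sensitive organoids). The part of these markers in the members' results was not tested.

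In NSCLC organoids 38 of the 81 members tested were higher and 11 were lower than in normal lung organoids at an adjusted p under 0.05 (edgeR's quasi-likelihood test, Benjamini-Hochberg adjustment over all 19932 genes tested, as for every adjusted p in this text). Of all genes tested, 28.5% were higher and 25% were lower. The median log2 fold change was 0.57 over the members tested and 0.11 over all genes. Groups did not overlap in 38 members with NSCLC higher and 16 with NSCLC lower, against 31.6% and 27.7% of all genes. Members took up 1.23% to 1.37% of all counts in NSCLC libraries and 0.677% to 0.757% in normal libraries. The balance between directions depended on the scaling, since upper quartile scaling moved the median over all genes to -0.08 and gave 36 members higher and 18 lower, or 66.7% of member calls higher against 77.6%. The authors' deposited table has 37 members higher and 14 lower at the same threshold. All 37 of these and 11 of the 14 were called in the same direction here, and 0 were opposite. Without normal library 3, 34 members were higher and 7 lower. Hspb3 had 0 counts in every library of either table.

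**Figure D1:**
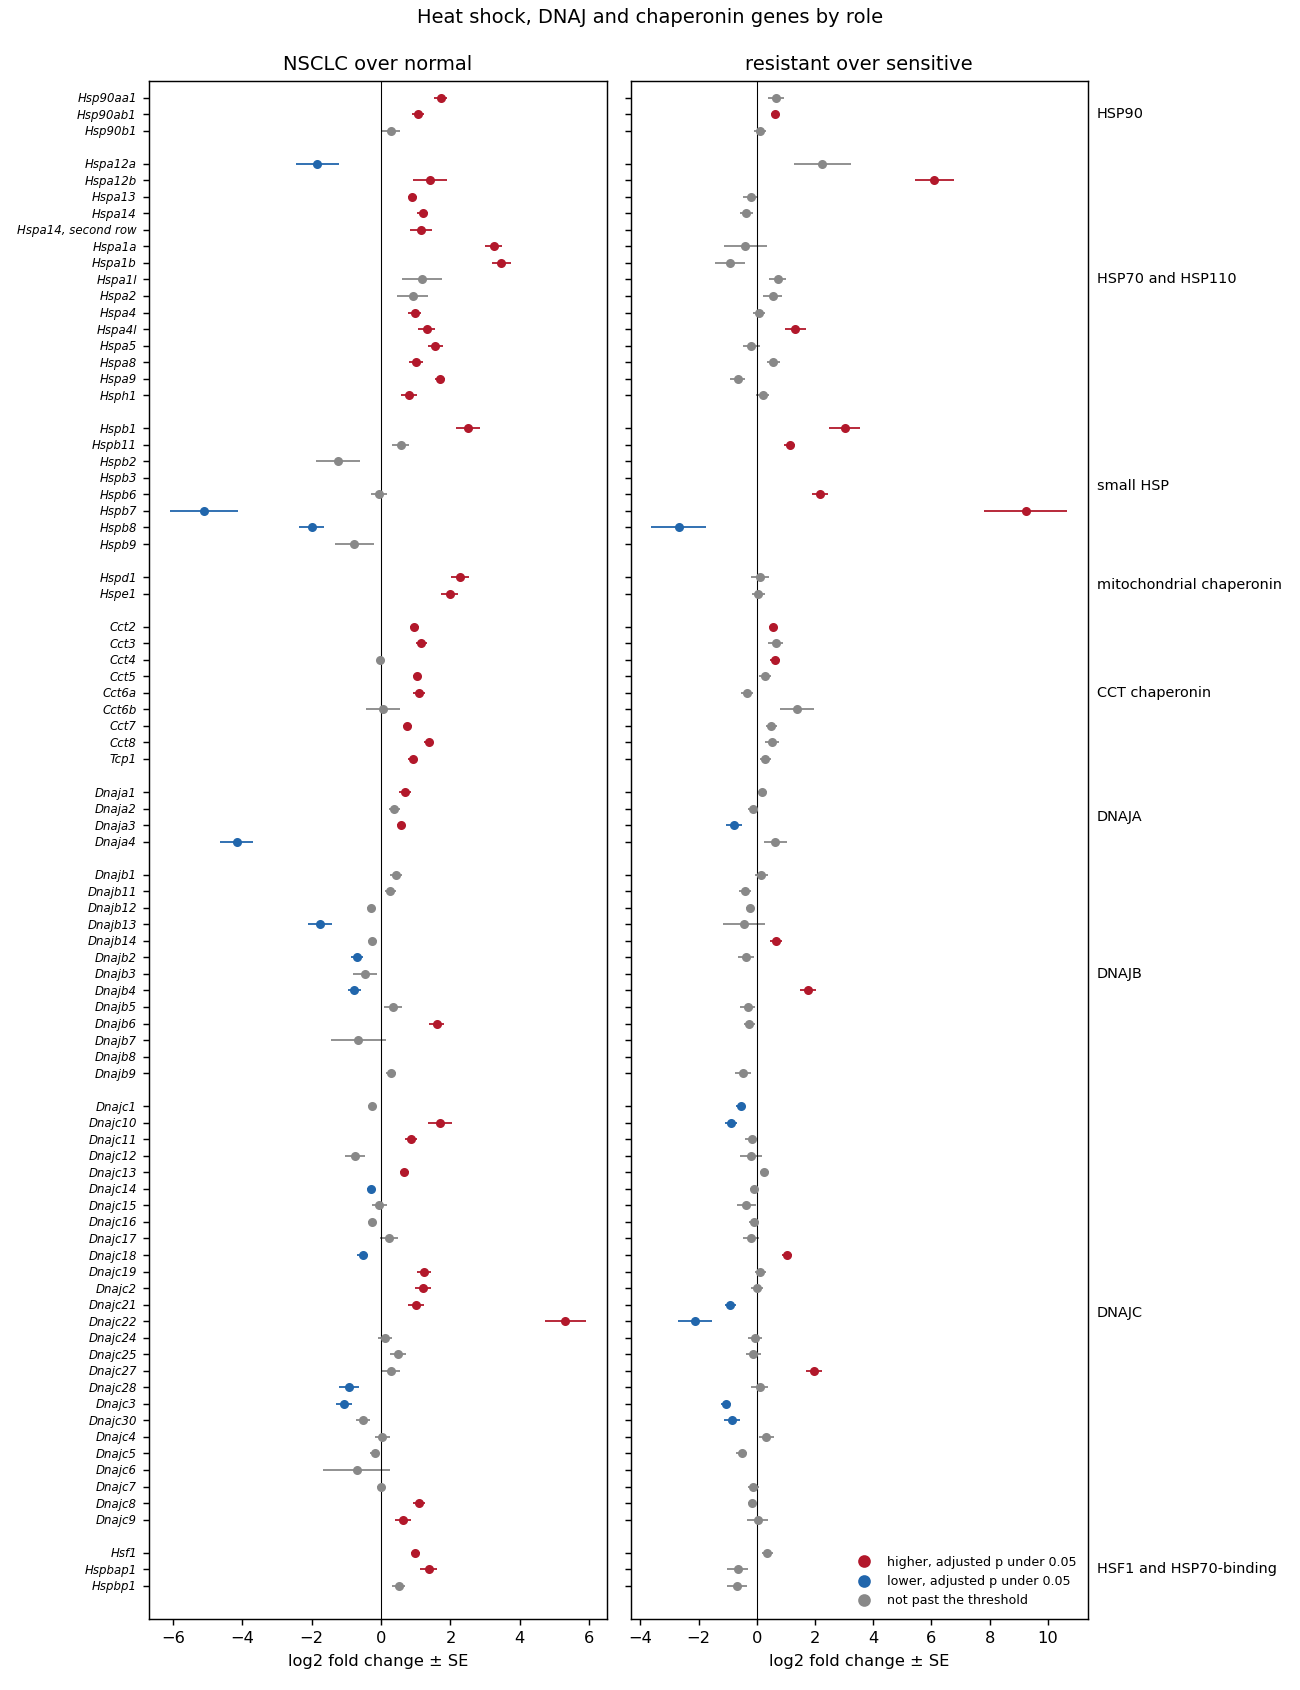
Log2 fold change ± SE (x axis) of each tested member by role (rows), for NSCLC over normal at left and resistant over sensitive at right, with red for higher, blue for lower and grey for not past the threshold. In NSCLC the HSP70, mitochondrial and CCT rows lie mostly right of 0, and in resistant organoids the small heat shock rows do. The fitted change of Hspb7 in resistant organoids stands against 0 counts in sensitive organoids and depends on the prior count.

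Cytosolic HSP90 was higher in NSCLC and its ER form was not called. Hsp90aa1, the inducible cytosolic form, had 765, 674, 809 and 986 CPM in the 4 NSCLC libraries, against 210.0, 279 and 245 CPM in the 3 normal libraries (log2 fold change 1.72 ± 0.19 SE, adjusted p = 0.000178). Hsp90ab1, the constitutive form, had 2375, 2140.4, 1807 and 2153 CPM in NSCLC, against 889.8, 1079.6 and 1062 CPM in normal libraries (log2 fold change 1.07 ± 0.18 SE, adjusted p = 0.00146). Neither gene's groups overlapped. The log2 ratio of Hsp90aa1 to Hsp90ab1 counts within a library was -1.40 ± 0.29 in NSCLC and -2.05 ± 0.09 in normal organoids (SD), a difference of 0.65 with p = 0.0571 in an exact two-sided permutation test, the smallest p that 35 regroupings allow. Hsp90b1, the ER form known as GRP94, was at 349.7 ± 121 CPM in NSCLC and 288 ± 11.1 CPM in normal organoids, with overlapping groups and an adjusted p of 0.382. Per kilobase of exon, Hsp90ab1 was the most abundant member in either group, at 707 ± 78.1 CPM per kb in NSCLC and 337 ± 34.9 CPM per kb in normal organoids.

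Of the 15 HSP70 and HSP110 rows, 12 were higher in NSCLC and 1 was lower, beside 28.5% higher and 25% lower among all genes. The inducible pair Hspa1a and Hspa1b changed most among those that rose. Hspa1a had 239.9, 253, 428 and 254 CPM in NSCLC libraries, against 31.4, 28.2 and 33.0 CPM in normal libraries (log2 fold change 3.25 ± 0.25 SE, adjusted p = 2.86e-05). Hspa1b had 508, 681, 1031 and 666 CPM in NSCLC, against 65.7, 61.6 and 68.6 CPM in normal libraries (log2 fold change 3.47 ± 0.27 SE, adjusted p = 2.86e-05). The lowest NSCLC library was several times above the highest normal library for each gene, and NSCLC library 3 was the highest for each. These genes are near-identical copies on chromosome 17, Hspa1b from 34956436 to 34959238 and Hspa1a from 34969190 to 34972156 on the minus strand (mm10), and 47.1% of the 100-base words of the Hspa1a transcripts occur in those of Hspa1b, so counting could split reads between them. Their counts summed gave 748 to 1458 CPM in NSCLC and 89.8 to 102 CPM in normal libraries, a difference of 3.35 in mean log2 CPM (exact two-sided permutation p = 0.0571, again the smallest of 35 regroupings). Per kilobase of exon Hspa1b ranked 4 among members in NSCLC and 22 in normal organoids.

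Constitutive and organelle forms were also higher. Hspa5, the ER form called BiP, had 1200.0, 1486, 1169 and 978 CPM in NSCLC, against 335, 494 and 396 CPM in normal libraries (log2 fold change 1.56 ± 0.21 SE, adjusted p = 0.000542). Hspa9, mortalin of the mitochondrial matrix, had 509, 468, 475 and 515 CPM in NSCLC, against 137, 176 and 140.0 CPM in normal libraries (log2 fold change 1.70 ± 0.15 SE, adjusted p = 5.01e-05). Hspa8, the constitutive cytosolic form, averaged 1902 ± 403 CPM in NSCLC and 949.9 ± 41.5 CPM in normal organoids (log2 fold change 1.0 ± 0.21 SE, adjusted p = 0.00439). None of the 3 had overlapping groups. Hspa13, Hspa14 and its second row, and the HSP110 family members Hspa4 and Hspa4l rose as well, with log2 fold changes from 0.90 for Hspa13 to 1.32 for Hspa4l. The call of that second row ended without normal library 2 or 3. Hsph1, the HSP105 exchange factor, averaged 56.7 ± 15.0 CPM in NSCLC and 32.2 ± 4.96 CPM in normal organoids (log2 fold change 0.82 ± 0.23 SE, adjusted p = 0.0171). Leaving out normal library 3 or NSCLC library 2 ended that call. Weakly expressed, divergent forms moved apart. Hspa12b was higher at 2.04 ± 0.819 CPM in NSCLC and 0.767 ± 0.366 CPM in normal organoids, and Hspa12a lower at 0.647 ± 0.462 CPM in NSCLC and 2.33 ± 1.32 CPM in normal organoids, and the calls of each ended when normal library 1 or 3, or NSCLC library 2 or 3, was left out, that of Hspa12b also without NSCLC library 4 and under upper quartile scaling. Hspa1l and Hspa2, forms of the testis, were not called.

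**Figure D2:**
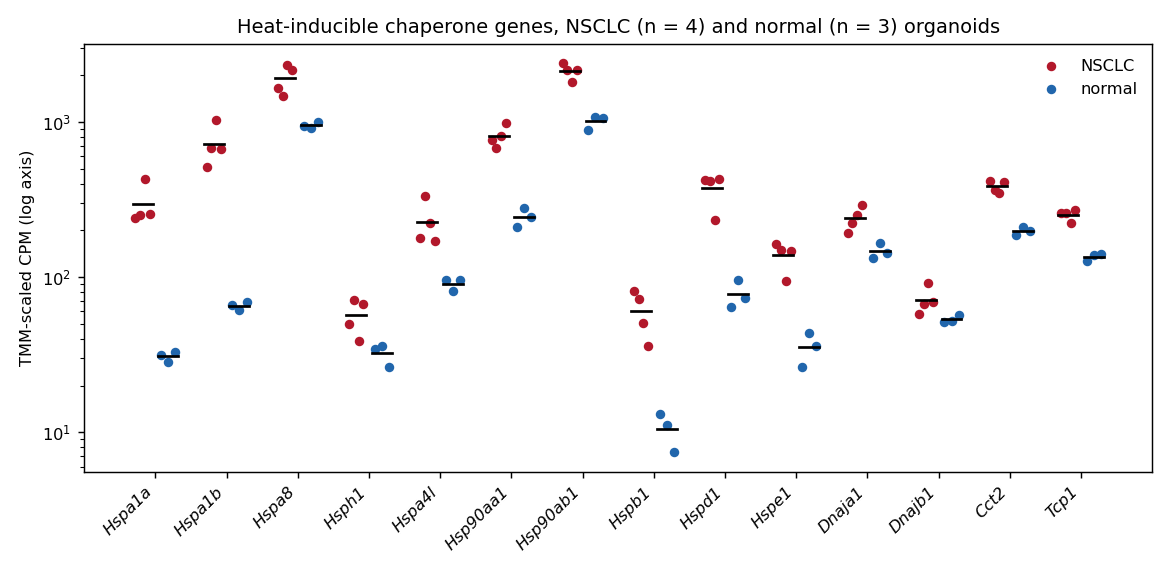
TMM-scaled CPM on a log axis (y axis) of the 14 members on the list of heat-inducible genes (x axis) in NSCLC (red, n = 4) and normal (blue, n = 3) organoids, with a point for each library and a bar at the mean. The NSCLC points of Hspa1a and Hspa1b lie farthest above the normal points, and those of Dnajb1 come closest to them.

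The list of 14 members plotted as heat-inducible also holds Cct2, Tcp1 and the forms called constitutive above, Hsp90ab1 and Hspa8. Of the 14, 13 were higher in NSCLC, with a median log2 fold change of 1.19, where 28.5% of all genes were higher. Dnajb1 was the exception and passed only without NSCLC library 1. Hspb8, Dnajb4 and Dnaja4, which were lower, are not on the list. Because HSF1 binds repeats of the unit nGAAn, the promoter windows of members were searched for them, from 250 bases before to 50 bases after each RefSeq start (GRCm38.p6), on both strands. Windows were found for 67 of the 82 symbols. None was found for Hsf1, Hsp90aa1, Hsp90ab1, Hspa8, Hspa9, Hspa13, Hspb2, Cct4, Dnajc2, Dnajc5, Dnajc11, Dnajc12, Dnajc18, Dnajc22 or Dnajc30. The counts by motif leave these genes out. A pair of facing units (GAANNTTC or TTCNNGAA) lay in 23.3% of 86 member windows, against 15.1% of all 32851 windows. A triplet (GAANNTTCNNGAA or TTCNNGAANNTTC, which contains pairs) lay in 6.98% of member windows, against 0.603% of all. By gene the shares were 5.97% of 67 members and 0.662% of all. The genes holding it were Dnajb6, Hspd1, Hspe1 and Hsph1, and all 4 rose in NSCLC. The matching windows are not separate stretches. A window of Hspd1 overlaps that of Hspe1 on the other strand, and the 2 windows of Dnajb6, like those of Hsph1, overlap each other. Of 17 tested members with a pair, 12 were higher and 3 lower, the 3 being Dnaja4, Dnajb4 and Hspb8. Of 48 tested members whose windows hold none, 16 were higher and 7 lower. A match is a description of these letters and not a binding site. The stretches below are those of the inducible pair, of the promoter region that Hspe1 shares with its neighbour Hspd1, and of Hspb1 and Dnajb6, with matches to the pair in capitals, each written 5′ to 3′ on the strand of its gene.
Hspa1a: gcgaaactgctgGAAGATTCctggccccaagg
Hspa1b: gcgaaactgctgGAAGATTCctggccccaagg
Hspe1: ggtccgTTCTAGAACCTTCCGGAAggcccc
Hspb1: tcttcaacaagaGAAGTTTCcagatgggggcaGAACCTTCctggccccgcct
Dnajb6: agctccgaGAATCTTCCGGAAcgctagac
The Hspa1a stretch lies at chr17:34972241-34972272 (minus strand) and that of Hspa1b at chr17:34959323-34959354 (minus strand), each with the match at position -104 from the start, and the whole windows of these genes are identical at 296 of 300 positions. The Hspe1 stretch is at chr1:55088053-55088082 (plus strand) and falls in a UTR of an annotated Hspd1 transcript of the other strand. Its 3 overlapping pairs form the triplets. The Hspb1 stretch is at chr5:135887790-135887841 (plus strand), upstream of the annotated transcripts, and that of Dnajb6 at chr5:29735844-29735872 (plus strand), in a UTR of Dnajb6 and coding sequence annotated for Gm5129.

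The mitochondrial chaperonin rose in both its parts. Hspd1 (HSP60) had 422, 416, 232 and 430.4 CPM in NSCLC libraries, against 64.0, 96.2 and 73.3 CPM in normal libraries (log2 fold change 2.27 ± 0.27 SE, adjusted p = 0.000253). Hspe1 (HSP10), its lid, had 164, 149, 94.8 and 148 CPM in NSCLC, against 26.3, 43.8 and 35.9 CPM in normal libraries (log2 fold change 1.98 ± 0.25 SE, adjusted p = 0.000341). NSCLC library 3 was the lowest of the NSCLC group for each gene and still lay above every normal library. Of 8 members on a list of mitochondrial chaperones, 6 rose and none fell, and of 12 other genes of mitochondrial protein import and quality control 9 rose and 0 fell. Among all genes 28.5% were higher and 25% lower. Lonp1, the matrix protease, averaged 289.8 ± 41.6 CPM in NSCLC and 70.3 ± 7.21 CPM in normal organoids (log2 fold change 2.04), and Pam16 and Tomm70a, of the import machinery, had log2 fold changes of 2.21 and 1.11.

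Small heat shock proteins went both ways, with 1 higher and 2 lower of 7 tested, beside the 28.5% higher and 25% lower of all genes. Hspb1 (HSP25 in mouse), an ATP-independent holdase, had 81.8, 72.3, 50.5 and 35.9 CPM in NSCLC, against 13.2, 11.1 and 7.44 CPM in normal libraries (log2 fold change 2.51 ± 0.34 SE, adjusted p = 0.000489). Hspb8, the partner of Bag3 in selective autophagy, had 20.6, 7.48, 8.33 and 15.1 CPM in NSCLC, against 41.7, 52.8 and 60.7 CPM in normal libraries (log2 fold change -2.01 ± 0.36 SE, adjusted p = 0.00203). The groups of each gene did not overlap. Hspb7, a form of heart and muscle, was called lower but rested on 4, 0, 1 and 0 counts in NSCLC libraries and 5, 14 and 6 counts in normal libraries. Outside the list, the related lens and muscle protein Cryab was lower at 9.75 ± 10.1 CPM in NSCLC and 100.4 ± 14.7 CPM in normal organoids (log2 fold change -3.37 ± 0.67 SE, adjusted p = 0.00355). Genes of other cell types were lower beside these. Of 8 fibroblast markers 8 were lower, with summed levels of 0.302 to 0.699 CPM in NSCLC and 77.0 to 435 CPM in normal organoids and Lum at 0 in NSCLC. Of 6 muscle markers 1 was called lower, with sums of 0.432 to 1.07 CPM in NSCLC and 2.03 to 7.03 CPM in normal organoids and Actc1 at 0 in normal organoids. Their part in the result was not tested, and in bulk RNA fewer cells of a type and less RNA per cell cannot be told apart.

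All ring subunits of the cytosolic chaperonin but Cct4 rose in NSCLC. Log2 fold changes of the 7 that rose ran from 0.76 for Cct7 to 1.38 for Cct8, none with overlapping groups. Cct8 averaged 287 ± 17.9 CPM in NSCLC and 111 ± 10.5 CPM in normal organoids (adjusted p = 7.19e-05), and Tcp1, the first subunit, 253 ± 20.7 CPM in NSCLC and 135 ± 7.38 CPM in normal organoids (log2 fold change 0.91 ± 0.12 SE, adjusted p = 0.000542). Cct2, Cct3, Cct5 and Cct6a had log2 fold changes of 0.95, 1.16, 1.04 and 1.10. Cct4 had 144, 128, 129 and 134 CPM in NSCLC, against 139, 128 and 139 CPM in normal libraries, with overlapping groups (log2 fold change -0.02 ± 0.11 SE, adjusted p = 0.874). Its sign depended on the setting, being positive with no filter on low counts or without normal library 1 or 3. Per kilobase and relative to the mean of the 8 ring subunits in the same library, Cct4 was at 0.446 ± 0.023 in NSCLC and 0.879 ± 0.086 in normal organoids (SD), and Cct8 at 1.30 ± 0.02 in NSCLC and 0.971 ± 0.045 in normal organoids. These relative levels describe unequal change within the ring. Cct6b, the testis form, was under 1 CPM in every NSCLC and normal library. Of 11 prefoldin subunits and related partners, which hand actin and tubulin to the ring, 7 rose and 2 fell. Among all genes 28.5% were higher and 25% lower. Pfdn4, Vbp1 and Pfdn2 rose by 1.88, 1.04 and 1.53 on the log2 scale, and Pfdn5 and Pdrg1 had log2 fold changes of -0.42 and -0.57.

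**Figure D3:**
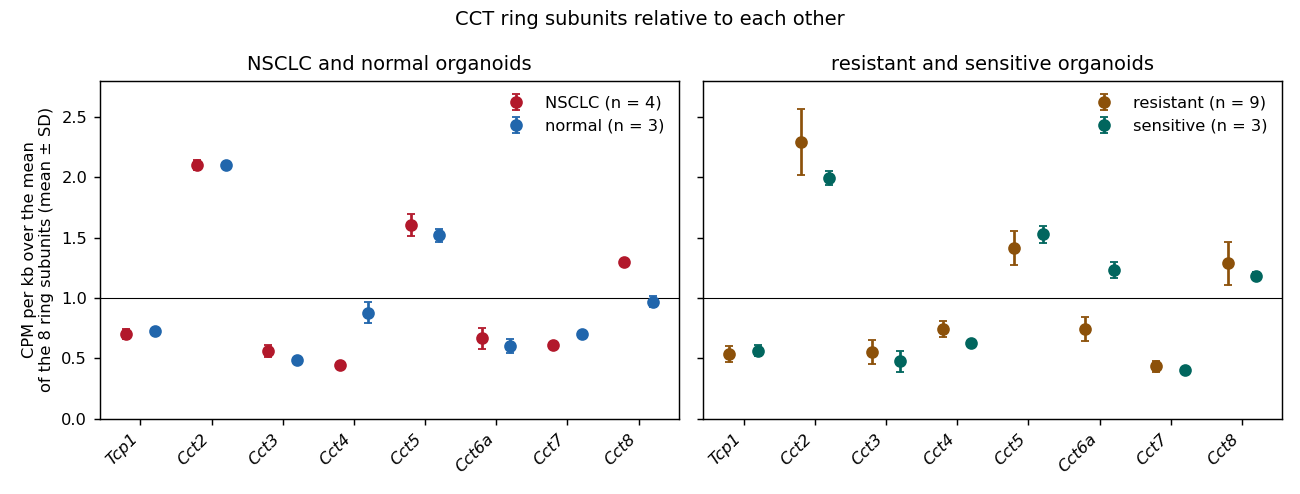
Level per kb of exon of each CCT ring subunit over the mean of the 8 subunits in the same library (y axis, mean ± SD), by subunit (x axis), for NSCLC and normal organoids at left and resistant and sensitive organoids at right. Cct4 stands at 0.446 in NSCLC and 0.879 in normal organoids, and Cct6a at 0.741 in resistant and 1.23 in sensitive organoids.

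J-domain genes divided. In the DNAJA class 2 of 4 rose and 1 fell, in the DNAJB class 1 of 12 tested rose and 3 fell, and in the DNAJC class 9 of 26 rose and 4 fell, beside 28.5% higher and 25% lower among all genes. The DNAJB share lower and the DNAJC share higher thus lay near those of all genes. Dnaja1, a general HSP70 partner of the cytosol, averaged 238 ± 41.8 CPM in NSCLC and 147 ± 15.8 CPM in normal organoids (log2 fold change 0.69 ± 0.17 SE, adjusted p = 0.00915), and the mitochondrial Dnaja3 had a log2 fold change of 0.57. Dnaja4 went the other way, with 3.12, 0.947, 1.14 and 0.843 CPM in NSCLC, against 27.4, 26.5 and 27.4 CPM in normal libraries (log2 fold change -4.16 ± 0.48 SE, adjusted p = 0.000228). The 3 normal libraries were nearly equal, and NSCLC library 1 was the highest of the NSCLC group. Dnajb6, known to keep polyglutamine protein from aggregating, had 139, 147, 248 and 165 CPM in NSCLC, against 64.0, 51.8 and 57.0 CPM in normal libraries (log2 fold change 1.60 ± 0.22 SE, adjusted p = 0.000621). Dnajb1, the inducible HSP40, had 58.2, 67.2, 91.7 and 69.5 CPM in NSCLC, against 51.2, 51.8 and 57.2 CPM in normal libraries, and did not pass the threshold although its groups did not overlap (log2 fold change 0.42 ± 0.16 SE, adjusted p = 0.0583). It was called higher without NSCLC library 1 (adjusted p = 0.0286). Dnajb2, Dnajb4 and Dnajb13 were lower, with log2 fold changes of -0.71, -0.77 and -1.75. Dnajb13 is a protein of motile cilia and sperm tails, at 1.27 ± 0.407 CPM in NSCLC and 4.30 ± 1.01 CPM in normal organoids. Beside it, 5 of 7 ciliated cell markers were lower and 0 higher, with sums of 5.02 to 11.3 CPM in NSCLC and 37.7 to 39.8 CPM in normal organoids and Foxj1 at 0.108 to 0.795 CPM in NSCLC and 3.92 to 13.7 CPM in normal organoids. Their part in the result was not tested.

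Dnajc22, a membrane J protein, changed most of all members tested that rose. It had 27.6, 61.1, 31.2 and 55.5 CPM in NSCLC, against 2.15, 0.483 and 0.693 CPM in normal libraries (log2 fold change 5.31 ± 0.60 SE, adjusted p = 0.000199). Every NSCLC library lay far above every normal library. Also higher were genes of several compartments: Dnajc19 of the mitochondrial import motor (log2 fold change 1.25), Dnajc8 of the spliceosome (1.08), Dnajc13 of endosomes (0.67), Dnajc2 of the ribosome (1.20), Dnajc11 of the mitochondrial membranes (0.86) and Dnajc21 of ribosome assembly (1.0). Dnajc9, a histone chaperone, was called at an adjusted p of 0.0455 with overlapping groups, and its call was lost when any normal library or NSCLC library 1, 2 or 4 was left out, and also under RLE or upper quartile scaling and with counts thinned to equal depth. Calls of Dnajc14, Dnajc18 and Dnajc28, the lower DNAJC genes other than Dnajc3, were each lost without normal library 1 or 3, those of Dnajc14 and Dnajc28 also without NSCLC library 2, and that of Dnajc14 also without normal library 2. With no filter on low counts, Dnajc14 and Dnajc18 were not called.

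J proteins of the ER went both ways. Dnajc10, the disulfide reductase ERdj5, had 358, 301, 136 and 172 CPM in NSCLC, against 73.3, 84.9 and 66.4 CPM in normal libraries (log2 fold change 1.69 ± 0.34 SE, adjusted p = 0.0038). Dnajc3, the BiP partner also known as p58IPK, had 46.8, 83.3, 61.4 and 92.7 CPM in NSCLC, against 149, 145 and 151 CPM in normal libraries (log2 fold change -1.06 ± 0.22 SE, adjusted p = 0.0045). NSCLC library 4 was the highest for Dnajc3 and remained below every normal library. Dnajb9 (ERdj4) averaged 29.5 ± 4.65 CPM in NSCLC and 24.2 ± 1.21 CPM in normal organoids, and Dnajb11 (ERdj3) 123 ± 23.3 CPM in NSCLC and 102 ± 6.07 CPM in normal organoids, neither past the threshold (adjusted p = 0.147 and 0.2). Of 8 members on a list of ER chaperones, which holds Hspa13 beside those named and Dnajc1 but not Dnajb14, 3 were higher and 1 lower. For this list and the next, the shares of all genes were 28.5% higher and 25% lower. Among 23 other genes of ER folding and the unfolded protein response, 15 rose and 1 fell. Creld2, Xbp1, the spliced transcription factor of that response, and the stress factor Ddit3 rose by 1.08, 1.31 and 2.27 on the log2 scale, and Sel1l of ER degradation had a log2 fold change of -0.71.

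The ER stress response element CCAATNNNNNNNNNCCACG was found in the windows of 3 members, Hspa5, Hsp90b1 and Dnajc3, or 3.49% of member windows against 0.119% of all, and it is shown because these genes differed in direction in NSCLC: Hspa5 was higher, Hsp90b1 not called and Dnajc3 lower.
Hspa5: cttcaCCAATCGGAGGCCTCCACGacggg
Hsp90b1: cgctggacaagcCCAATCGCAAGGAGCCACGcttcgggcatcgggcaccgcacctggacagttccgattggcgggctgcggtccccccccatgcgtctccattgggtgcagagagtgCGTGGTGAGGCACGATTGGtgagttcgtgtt
Dnajc3: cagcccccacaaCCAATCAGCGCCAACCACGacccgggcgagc
Capitals mark the element on either strand. The Hspa5 stretch is at chr2:34772020-34772048 (plus strand), in a UTR of Hspa5, that of Hsp90b1 at chr10:86705521-86705668 (minus strand) with 2 matches, and that of Dnajc3 at chr14:118937815-118937857 (plus strand).

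Hsf1 itself had 52.4, 47.3, 59.1 and 57.3 CPM in NSCLC, against 26.4, 30.2 and 25.3 CPM in normal libraries, with no overlap (log2 fold change 0.98 ± 0.13 SE, adjusted p = 0.000473). Hspbap1, which binds Hspb1, rose by 1.38 on the log2 scale, and Hspbp1, which binds HSP70 and promotes nucleotide exchange, averaged 36.0 ± 6.37 CPM in NSCLC and 25.3 ± 5.18 CPM in normal organoids and was not called (adjusted p = 0.0551). Hsf4, another factor of the family, was lower with a log2 fold change of -1.13 and overlapping groups, and Hsbp1, a binding partner of HSF1, was higher by 0.43. Of 24 co-chaperones outside the list 14 rose and 2 fell, beside 28.5% higher and 25% lower among all genes. Ptges3 (p23), which acts late in the HSP90 cycle, averaged 127 ± 2.83 CPM in NSCLC and 34.0 ± 2.50 CPM in normal organoids (log2 fold change 1.91 ± 0.11 SE, adjusted p = 6.91e-06). Bag2, an HSP70 exchange factor, and Ppid, an HSP90-binding isomerase, rose by 2.07 and 1.59 on the log2 scale, and Ttc4 and Bag5 had log2 fold changes of -0.45 and -0.93.

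Between resistant and sensitive organoids fewer members passed the test. In resistant organoids 13 of 75 members tested were higher and 8 lower, where 19.3% and 18.2% of all 14360 genes tested were higher and lower. Groups did not overlap in 12 members with resistant higher and 6 with resistant lower, against 14.8% and 16.5% of all genes. The median log2 fold change was 0.03 over the members and 0.06 over all genes, so as a whole the members lay near the other genes. They took up 1.72% to 2.33% of counts in resistant libraries and 1.48% to 1.75% in sensitive libraries. The authors' deposited table has 15 members higher and 9 lower, of which 13 and 8 were called here in the same direction. The number lower fell to 4 without sensitive library 1 or 3 and to 5 without sensitive library 2. Without resistant libraries 6, 8 and 9, those with no Y-linked counts, 13 members were higher and 9 lower. An unplanned fit without resistant libraries 8 and 9 gave 13 higher and 8 lower.

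All 5 small heat shock genes tested passed the threshold, 4 of them higher in resistant organoids and 1 lower, where 19.3% and 18.2% of all genes were higher and lower. Hspb1 was at 34.8 at the lowest, 49.8 at the median and 178 at the highest CPM among the 9 resistant libraries, against 9.59, 9.45 and 5.67 CPM in the 3 sensitive libraries (log2 fold change 3.02 ± 0.54 SE, adjusted p = 0.000981). Hspb6 (HSP20), a form abundant in muscle, was at 10.8 at the lowest, 12.7 at the median and 18.9 at the highest CPM in resistant libraries, against 2.85, 2.32 and 3.58 CPM in sensitive libraries (log2 fold change 2.17 ± 0.27 SE, adjusted p = 9.44e-05). Every resistant library lay above every sensitive library for each of them. Hspb7 was at 0.370 at the lowest, 3.10 at the median and 8.80 at the highest CPM in resistant libraries, from 8 counts in library 1 up to 222 in library 7, against 0 counts in each sensitive library. Its mean was at least 19.8-fold higher than the 3-count floor of the shallowest sensitive library (adjusted p = 0.000636). Hspb11, also known as the cilium transport protein IFT25, was at 13.6 at the lowest, 15.8 at the median and 19.4 at the highest CPM in resistant libraries, against 6.57, 7.68 and 8.03 CPM in sensitive libraries (log2 fold change 1.13 ± 0.19 SE, adjusted p = 0.000701).

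Hspb8 was the exception. It was at 0.832 at the lowest, 2.19 at the median and 49.2 at the highest CPM in resistant libraries, the highest being library 5, against 95.8, 36.1 and 63.7 CPM in sensitive libraries (log2 fold change -2.68 ± 0.95 SE, adjusted p = 0.0396). Library 5 lay within the sensitive range and the other 8 below it. The call was lost without any sensitive library and without resistant library 1, 2, 3, 4, 6, 7 or 8. Cryab, outside the list, was higher at 7.28 ± 6.18 CPM in resistant and 0.330 ± 0.0979 CPM in sensitive organoids (log2 fold change 4.44 ± 0.92 SE, adjusted p = 0.00263), and with it Hsf4 and Hsf2, factors of the HSF family, by 1.88 and 0.71 on the log2 scale. Fibroblast markers moved with these genes, 7 of 8 being higher and 0 lower, with summed levels of 68.3 to 989 CPM in resistant and 13.8 to 37.8 CPM in sensitive organoids. Of 6 muscle markers 1 could be tested and was not called, and their sum was 0.647 to 2.72 CPM in resistant and 1.15 to 1.92 CPM in sensitive organoids, with Actc1 at 0 in sensitive organoids. Epithelial markers were lower in 4 of 7 cases, and Epcam ran from 0.818 to 323 CPM in resistant libraries, against 538 to 598 CPM in sensitive libraries. The part of the fibroblast and epithelial markers in the result was not tested.

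**Figure D4:**
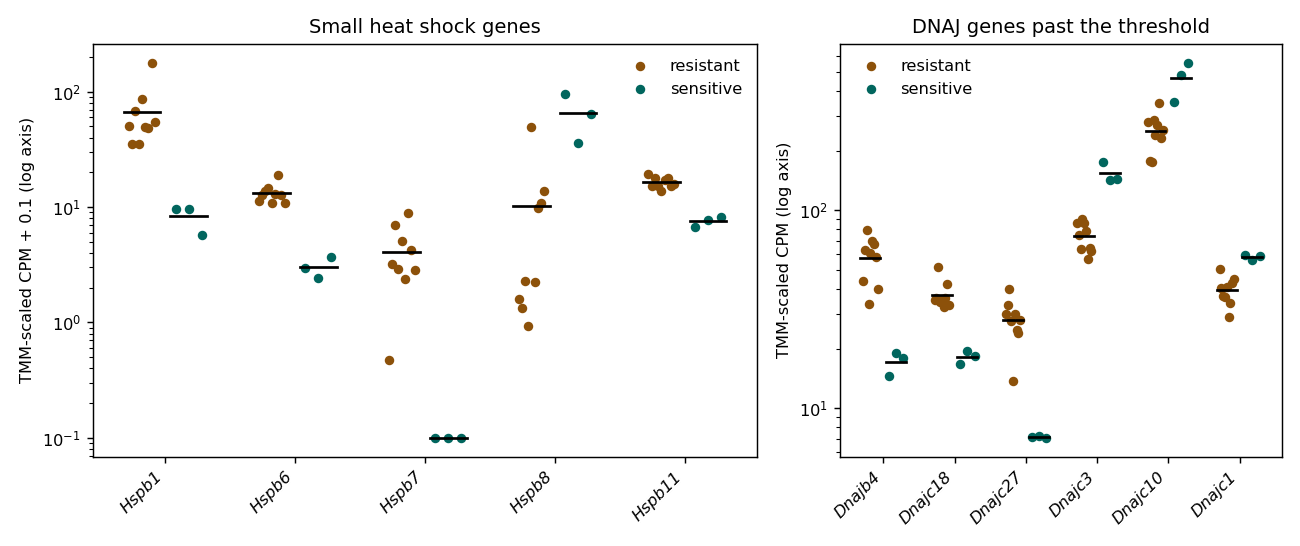
TMM-scaled CPM on a log axis (y axis) of the 5 tested small heat shock genes (left, 0.1 added so that 0 can be drawn) and of 6 J-domain genes past the threshold (right) in resistant (brown, n = 9) and sensitive (green, n = 3) organoids, with a point for each library and a bar at the mean. Hspb7 lies at the lower edge in each sensitive library, and Hspb8 of resistant library 5 lies within the sensitive range.

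The cytosolic HSP90 pair showed 1 call. Hsp90ab1 was at 3186 at the lowest, 3479 at the median and 4659 at the highest CPM in resistant libraries, against 2549.5, 2228 and 2455 CPM in sensitive libraries, with no overlap (log2 fold change 0.61 ± 0.14 SE, adjusted p = 0.00461). Hsp90aa1 was at 947 at the lowest, 1783 at the median and 2204 at the highest CPM in resistant libraries, against 1080.3, 719.5 and 1282 CPM in sensitive libraries, with overlap and a similar log2 fold change of 0.67 ± 0.28 SE that did not pass (adjusted p = 0.0731). It passed without resistant library 2 (adjusted p = 0.0395) or 3 (adjusted p = 0.035). The log2 ratio of Hsp90aa1 to Hsp90ab1 counts was -1.22 ± 0.51 in resistant and -1.27 ± 0.35 in sensitive organoids (SD), differing by 0.05 (p = 0.846, two-sided exact permutation test), and the sign of that difference turned without sensitive library 2 or resistant library 5, 7 or 8. Hsp90b1 averaged 837 ± 181 CPM in resistant and 780.1 ± 125 CPM in sensitive organoids (log2 fold change 0.10 ± 0.20 SE, adjusted p = 0.715). That value was negative without sensitive library 2.

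Of 14 HSP70 and HSP110 genes, Hspa12b and Hspa4l were higher in resistant organoids and none was lower. Among all genes 19.3% were higher and 18.2% lower. Hspa12b, a divergent HSP70 known from endothelium, was at 5.78 at the lowest, 22.2 at the median and 39.4 at the highest CPM in resistant libraries, against 0.274, 0.427 and 0.202 CPM in sensitive libraries (log2 fold change 6.10 ± 0.66 SE, adjusted p = 3.62e-05). The lowest resistant library, library 1, still lay far above the highest sensitive library. Of 6 endothelial markers 4 could be tested and 0 were called, with sums of 0.786 to 15.9 CPM in resistant and 7.22 to 14.9 CPM in sensitive organoids. Hspa4l, an HSP110 relative, was at 109 at the lowest, 271 at the median and 485 at the highest CPM in resistant libraries, against 118, 106 and 108 CPM in sensitive libraries (log2 fold change 1.31 ± 0.36 SE, adjusted p = 0.0123). Leaving out sensitive library 2 or 3 ended the call. Its lowest resistant library, library 4, fell among the sensitive libraries.

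The inducible pair was not called. Hspa1a was at 13.9 at the lowest, 41.0 at the median and 292 at the highest CPM in resistant libraries, against 88.6, 91.5 and 88.1 CPM in sensitive libraries (log2 fold change -0.39 ± 0.73 SE, adjusted p = 0.699). Hspa1b was at 50.2 at the lowest, 77.7 at the median and 422 at the highest CPM in resistant libraries, against 268, 254 and 256 CPM in sensitive libraries (log2 fold change -0.92 ± 0.52 SE, adjusted p = 0.181). Sensitive libraries were nearly equal, and 8 of 9 resistant libraries lay below all of them for each gene, with library 8 far above. Summed, the pair was at 7.28 ± 1.05 log2 CPM in resistant and 8.45 ± 0.03 log2 CPM in sensitive organoids (SD), which differed by -1.17 (p = 0.118, two-sided exact permutation test). Without resistant library 8 the difference was -1.45 with an exact p of 0.0121. Library 8 was singled out by these same values, as the only resistant library above the sensitive ones. Leaving it out fixes that p at the smallest possible, so the p adds no support. With library 8 left out, edgeR's test called each gene lower, Hspa1a with a log2 fold change of -1.15 (adjusted p = 0.0481) and Hspa1b with -1.35 (adjusted p = 0.0104). Hspa8 averaged 2419.7 ± 636 CPM in resistant and 1634 ± 198 CPM in sensitive organoids (log2 fold change 0.57 ± 0.23 SE, adjusted p = 0.0663) and was called higher under upper quartile scaling or without resistant library 2 or 4. Hspa9 averaged 907 ± 304 CPM in resistant and 1437 ± 225 CPM in sensitive organoids (log2 fold change -0.66 ± 0.27 SE, adjusted p = 0.0666) and was called lower without resistant library 1 or 6. For Hspa5 and Hsph1 the log2 fold changes were -0.19 and 0.20 with adjusted p of 0.637 and 0.529.

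**Figure D5:**
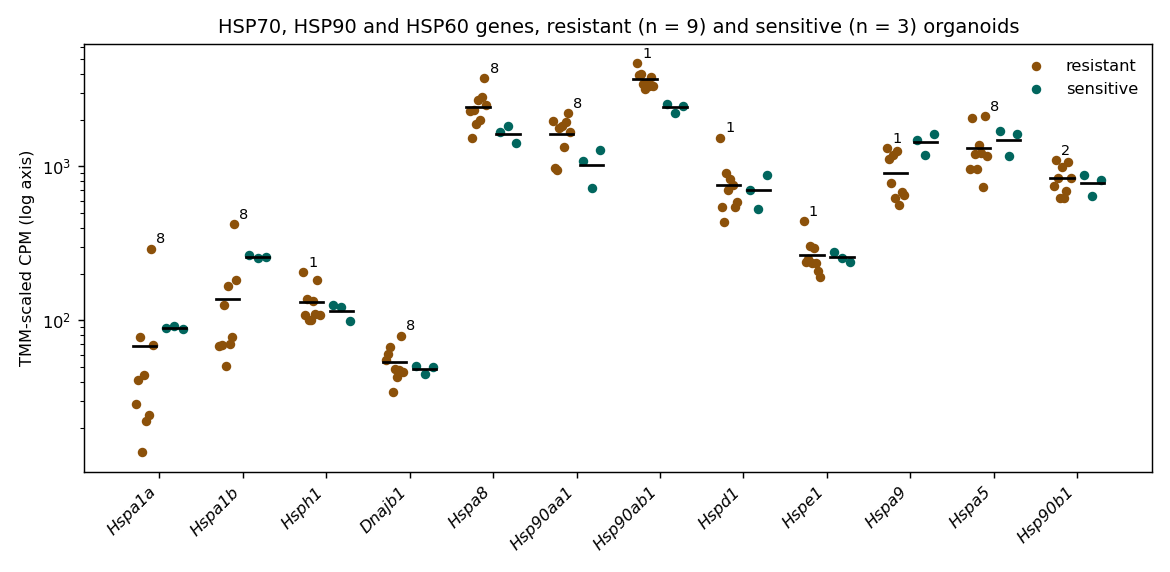
TMM-scaled CPM on a log axis (y axis) of 12 HSP70, HSP90, HSP60 and related members (x axis) in resistant (brown, n = 9) and sensitive (green, n = 3) organoids, with a point for each library, a bar at the mean and the number of the highest resistant library. Library 8 is the highest for Hspa1a and Hspa1b and library 1 for Hspd1 and Hspe1.

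The mitochondrial chaperonin did not pass the test. Hspd1 was at 432 at the lowest, 698 at the median and 1536 at the highest CPM in resistant libraries, against 705, 531 and 877 CPM in sensitive libraries (log2 fold change 0.11 ± 0.32 SE, adjusted p = 0.81). Hspe1 was at 192 at the lowest, 239 at the median and 439 at the highest CPM in resistant libraries, against 278, 255 and 239 CPM in sensitive libraries (log2 fold change 0.05 ± 0.22 SE, adjusted p = 0.866). Library 1 was the highest resistant library for each. Without it either fold change was negative, and that of Hspd1 also without sensitive library 2. In the cytosolic ring Cct2 and Cct4 were higher in resistant organoids and none was lower, beside 19.3% and 18.2% of all genes. Cct2 was at 687 at the lowest, 767 at the median and 987 at the highest CPM in resistant libraries, against 551, 477 and 602 CPM in sensitive libraries (log2 fold change 0.57 ± 0.14 SE, adjusted p = 0.00782). Cct4 averaged 432 ± 74.1 CPM in resistant and 279 ± 35.2 CPM in sensitive organoids (log2 fold change 0.63 ± 0.18 SE, adjusted p = 0.0151). Their calls were lost without sensitive library 2, and that of Cct4 also without sensitive library 1. Tcp1, Cct3, Cct5, Cct7 and Cct8 had log2 fold changes from 0.28 for Cct5 to 0.64 for Cct3 without a call. Cct3 was called higher without resistant library 2 or 3, and Cct7 without library 1, 2 or 3 or under upper quartile scaling. Cct6a had a log2 fold change of -0.34 ± 0.22 SE (adjusted p = 0.244). Relative to the mean of the ring per kilobase it was at 0.741 ± 0.101 in resistant and 1.23 ± 0.06 in sensitive organoids (SD), with ranges that did not overlap.

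Of the J-domain genes 4 were higher in resistant organoids. Higher and lower were 0 and 1 of 4 tested DNAJA genes, 2 and 0 of 10 DNAJB genes, and 2 and 6 of 25 DNAJC genes. Of all genes 19.3% were higher and 18.2% lower, and these small counts were not tested against those shares. Dnajb4, an HSP40 close to Dnajb1, was at 33.6 at the lowest, 60.9 at the median and 79.3 at the highest CPM in resistant libraries, against 14.5, 19.0 and 17.9 CPM in sensitive libraries (log2 fold change 1.75 ± 0.27 SE, adjusted p = 0.000395). Dnajc27, which joins a J domain to a small GTPase, was at 13.8 at the lowest, 27.8 at the median and 39.9 at the highest CPM in resistant libraries, against 7.12, 7.19 and 7.09 CPM in sensitive libraries (log2 fold change 1.97 ± 0.28 SE, adjusted p = 0.00023). Dnajc18 averaged 37.4 ± 6.04 CPM in resistant and 18.2 ± 1.32 CPM in sensitive organoids (log2 fold change 1.04 ± 0.18 SE, adjusted p = 0.000771). No resistant library overlapped the sensitive libraries for these genes. Dnajb14, an ER membrane protein, was higher by 0.65 on the log2 scale, a call lost when any sensitive library was left out. Dnajb1 averaged 53.5 ± 13.8 CPM in resistant and 48.4 ± 3.24 CPM in sensitive organoids, and Dnaja1 191 ± 33.0 CPM in resistant and 169.7 ± 8.82 CPM in sensitive organoids, neither past the threshold (adjusted p = 0.632 and 0.431). On the list of 14 heat-inducible members, 4 were higher and 0 lower, beside 19.3% and 18.2% of all genes. The 4 were Hspb1, Hspa4l, the ring subunit Cct2 and the constitutive Hsp90ab1. Hspa1a, Hspa1b, Hsph1 and Dnajb1, also on the list, were not called. Of 17 tested members with the facing HSE pair in a promoter window, 5 were higher and 2 lower, Hspb8 and Dnajc10. Of 44 tested members whose windows hold none, 5 were higher and 4 lower. None of the 4 with a triplet was called. Hspb6 and Dnajb4 were higher here, but Dnajb4 was lower in NSCLC. For each gene, 1 of its 2 windows holds 1 pair, shown in capitals.
Hspb6: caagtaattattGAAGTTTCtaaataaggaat
Dnajb4: ttcgttcgctgTTCTAGAAagtacagagac
The Hspb6 stretch is at chr7:30553169-30553200 (plus strand) and that of Dnajb4 at chr3:152193841-152193870 (minus strand), partly in a UTR of Dnajb4.

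Of the 8 members lower in resistant organoids, 5 were J proteins of the ER or the mitochondrion. This groups genes already called, and 18.2% of all genes were lower. Dnajc3 was at 56.8 at the lowest, 75.5 at the median and 90.7 at the highest CPM in resistant libraries, against 176, 143 and 144 CPM in sensitive libraries (log2 fold change -1.06 ± 0.16 SE, adjusted p = 0.000297). Dnajc10 was at 175 at the lowest, 255 at the median and 349 at the highest CPM in resistant libraries, against 351, 486 and 557 CPM in sensitive libraries (log2 fold change -0.89 ± 0.20 SE, adjusted p = 0.00431). Dnajc1, an ER membrane J protein, averaged 39.6 ± 6.42 CPM in resistant and 58.1 ± 1.76 CPM in sensitive organoids (log2 fold change -0.55 ± 0.16 SE, adjusted p = 0.0169). Its call ended with sensitive library 1 or 3 left out. None of the 3 had overlapping groups. Of the 8 members on the list of ER chaperones, which leaves out Dnajb14, 3 were lower and 0 higher. On that list Dnajb9 and Dnajb11 had log2 fold changes of -0.47 and -0.41 without a call. Dnajb11 was called lower without resistant library 6 (adjusted p = 0.0146). Dnajc21 and Dnajc22 were lower by log2 fold changes of -0.91 and -2.13, the call of Dnajc22 being lost without sensitive library 2. Dnaja3 and Dnajc30 of the mitochondrion had log2 fold changes of -0.78 and -0.84. Leaving out sensitive library 1 or 3, or resistant library 2, 3, 4, 5, 7, 8 or 9, ended the call of Dnaja3, and that of Dnajc30 ended without any one of the sensitive libraries. Among 23 other ER folding and unfolded protein response genes 1 was higher and 5 lower, where 19.3% and 18.2% of all genes were higher and lower. The share lower thus lay near that of all genes. Herpud1, of ER degradation, averaged 91.4 ± 51.4 CPM in resistant and 516 ± 85.8 CPM in sensitive organoids (log2 fold change -2.50 ± 0.40 SE, adjusted p = 0.00046), Xbp1 and Creld2 had log2 fold changes of -1.41 and -0.60, and Pdia6, a disulfide isomerase, was higher by 0.69.

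Hsf1 averaged 84.7 ± 18.7 CPM in resistant and 66.1 ± 3.60 CPM in sensitive organoids and was not called (log2 fold change 0.36 ± 0.19 SE, adjusted p = 0.161), nor were Hspbp1 and Hspbap1. Of 24 co-chaperones 4 were higher and 2 lower. For this and the lists below, the shares of all genes were 19.3% higher and 18.2% lower. Tomm34, an import co-chaperone, averaged 64.1 ± 8.25 CPM in resistant and 30.7 ± 1.11 CPM in sensitive organoids (log2 fold change 1.06 ± 0.16 SE, adjusted p = 0.000278). Fkbp5, the steroid-induced HSP90 partner, and Bag3, the partner of Hspb8, rose by 1.79 and 0.88 on the log2 scale, and Bag1 and Chordc1 had log2 fold changes of -0.86 and -0.72. Of 11 prefoldin and ring partners only Uri1 was called, with a log2 fold change of -0.63. Of 12 other mitochondrial quality control genes 1 was higher, Timm44, and 3 lower, Yme1l1, Grpel2 and Grpel1, with log2 fold changes from -1.09 to -0.62.

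Set side by side, with no test of the difference between them, the comparisons gave these log2 fold changes of the same members. Hspb1 was higher in each, by 2.51 in NSCLC over normal and 3.02 in resistant over sensitive organoids. Hsp90ab1, Hspa12b, Hspa4l and Cct2 were also higher in each, and Dnajc3 and Hspb8 were lower in each, Dnajc3 with log2 fold changes of -1.06 in NSCLC over normal and -1.06 in resistant over sensitive organoids. Dnajc22, Dnajc10, Dnajc21 and Dnaja3 were higher in NSCLC and lower in resistant organoids, whereas Dnajb4, Dnajc18 and Hspb7 were lower in NSCLC and higher in resistant organoids. Some of these calls were fragile. Those of Hspa12b and Dnajc18 in NSCLC and of Hspb8 and Dnaja3 in resistant organoids were lost under several alternatives. That of Hspb7 in NSCLC rested on few counts. Hspa1a, Hspa1b, Hspd1 and Hspe1 were called in NSCLC organoids and not in resistant organoids, where a missed threshold does not show that the groups were alike.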

How the data were processed

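The authors deposited a table for NSCLC and normal organoids and another for resistant and sensitive organoids, each holding raw read counts per gene and library, per the file headers and the values, which are whole numbers. The libraries were stranded, made from mRNA and read from both ends, per the labels' protocols. Per the submitters' processing notes, STAR 2.6.0a, DESeq2 1.26.0 and the build mm10 were used. The sources used here do not state their roles, the read counter or the annotation. Log2 fold changes and adjusted p-values that the authors deposited beside the counts were used only to count members. Of the per-sample columns, 7 and 12 scaled ones were not used.

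Each table was fitted on its own with edgeR 4.0.16 (R 4.3.3): filterByExpr, TMM scaling, glmQLFit and glmQLFTest, with Benjamini-Hochberg adjustment over all genes tested and a threshold of 0.05. SE was taken as log2 fold change divided by the root of the F statistic. Where a symbol was repeated (151 in the NSCLC table, 2 in the resistance table), only the most abundant row was left without a suffix. The Hsp90aa1 to Hsp90ab1 ratio and the summed Hspa1a and Hspa1b level (0.5 CPM added before the log) were tested by exact permutation over libraries. Levels per kb used the exon union of GENCODE M21, which is on mm10. Promoter windows of 300 bases came from RefSeq (GRCm38.p6). A fold against 0 counts is a lower bound, with a floor of 3 counts set in that group's shallowest library. The floor covers counting error only. The fit was tested on simulated data.

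Named genes were a fixed set of well known members plus, per role and direction, up to 4 called members with the smallest adjusted p, and of other lists up to 3. Dnajc9, Dnajc14, Dnajc28, Hsbp1, Hspa12a and other members named beyond that rule were named after their values were seen. Members and lists were chosen with earlier results of these data known. Alternatives were DESeq2 1.42.0, RLE and upper quartile scaling, no filter on low counts, a replicate block, thinning to equal depth, another pseudocount of 0.1 CPM and leaving out libraries.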

Additional observations from a re-analysis of the deposited data

Results flagged for a closer look

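In groups of 4 to 10 libraries, the highest or lowest library was marked where its gap to the nearest other library took up an unusually large share of the group's range. With independent, normally distributed values the rule would mark about 1 group in 20. CPM need not follow that distribution, and the groups are not independent, since Hspa1a, Hspa1b and their sum share libraries. The 14 marked of 89 groups tested are therefore not set against that rate. In NSCLC, library 3 was the highest for Hspa1a at 428 CPM and for Dnajb2 at 44.9 CPM and the lowest for Hspd1 at 232 CPM, library 4 was the highest for Cct3 at 308 CPM, and library 1 was the highest for Dnaja4 at 3.12 CPM. In the resistant group, library 8 was the highest for Hspa1a at 292.5 CPM, for Hspa1b at 422 CPM, for the sum of Hspa1a and Hspa1b at 714.5 CPM and for Hspb1 at 178 CPM. Resistant library 1 was the highest for Hspd1 at 1536 CPM and for Hspe1 at 439 CPM, library 5 for Hspb8 at 49.2 CPM, library 6 for Dnajb11 at 146 CPM and library 7 for Hspb6 at 18.9 CPM.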

How the results depend on the processing

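Under every alternative that gave a test, 34 of the 38 members higher and 7 of the 11 lower in NSCLC kept their call, as did 9 of 13 higher and 2 of 8 lower in resistant organoids, where the 2 were Dnajc10 and Dnajc3. In NSCLC 18 members were lower under upper quartile scaling. Leaving out 1 library at a time gave 34 to 38 higher and 7 to 14 lower in NSCLC, and 9 to 18 higher and 4 to 10 lower in resistant organoids. With counts thinned to equal depth, 37 members were higher and 15 lower of 74 tested in NSCLC. The summed Hspa1a and Hspa1b difference ranged from -1.45 to -1.01 without 1 library in resistant organoids. The Hsp90aa1 to Hsp90ab1 difference ranged from -0.14 to 0.21 there, being -0.0075, -0.0092 and -0.0103 without resistant library 5, 7 and 8. In NSCLC the log2 fold change of Cct4 was 0.037 with no filter on low counts and -0.10 to 0.0096 without 1 library, positive without normal library 1 or 3. In resistant organoids Hsp90b1 (-0.022 to 0.21) and Hspd1 (-0.087 to 0.30) were negative without sensitive library 2, and Hspd1 and Hspe1 (-0.068 to 0.13) without resistant library 1. The cause was not tested.

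Deviations from the group means in libraries with the same replicate number correlated at -0.0147, -0.0153 and -0.0419 in NSCLC and normal. In resistant and sensitive the correlations were 0.207, 0.155 and -0.12. Libraries with unlike numbers were not compared in this way, and the labels do not say that the numbers pair libraries, so pairing was not settled. With the replicate block 35 members were higher and 9 lower in NSCLC and 10 higher and 5 lower in resistant organoids, where Hspa1b was then called lower (log2 fold change -1.62, adjusted p = 0.00826) and Dnajc21 was not called. A library whose replicate number occurs in only 1 group adds nothing to the group difference in that fit. The differences thus rest on the 3 numbers that both groups share, and resistant library 8 has no part in them. The 3 libraries of the normal and of the sensitive group limit the precision of every difference, and members under about 1 CPM rest on few counts.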
